A study of Mus musculus with 2 samples.

Results

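The transcripts described here belong to 10 target genes of the transcription factor ATF4, chosen by symbol from the 24054 genes of the deposited table: Asns, Psat1, Phgdh and Psph, which encode enzymes of amino acid synthesis, Atf5, Nupr1 and Trib3, which encode regulators of the stress response, Ddit4 and Sesn2, which encode inhibitors of mTORC1, and Chac1, which encodes an enzyme that degrades glutathione. All 10 were found in the table. Their levels were compared between the livers of Pgrmc1 KO mice (Pgrmc1 -/Y) and WT mice, all male, C57BL/6 and 8 to 12 weeks old, with no other treatment in the labels. The KO is a whole-body deletion, made by crossing a floxed Pgrmc1 allele from C57BL/6N embryonic stem cells to Sox2-Cre mice, so that Pgrmc1 was lost in every cell type of the liver and in other organs. RNA of 5 mice per genotype, 2.5 μg from each, was pooled into 1 library per genotype. The spread between mice was therefore not measured, no difference below has a replicate check, and fewer cells of a type cannot be told apart from less RNA per cell. Feed was offered ad libitum in the colony; whether these livers were taken after a fast, and at which hour, is not given in the sources used here.

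ATF4 is the main transcription factor of the integrated stress response. Kinases that sense amino acid shortage, unfolded proteins in the endoplasmic reticulum, heme shortage or double-stranded RNA phosphorylate the initiation factor eIF2, which lowers general translation while the ATF4 mRNA is translated more. ATF4 pairs with C/EBP proteins on a composite DNA element and switches on amino acid synthesis and uptake, tRNA charging and, under lasting stress, the regulators Ddit3 (CHOP) and Trib3. In liver the pathway is known for its response to amino acid supply. Because ATF4 is controlled largely at translation, its targets are commonly read in place of its own transcript.

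To show the members' own regulatory sequence, their promoters (250 bases before to 50 after each annotated RNA start, RefSeq, GRCm38.p6) were searched for the core of the C/EBP-ATF element, TGATGNAA, on both strands. A promoter was given for all 10 members, and 4 of the 10 held a match in at least 1 promoter, namely Asns, Trib3, Chac1 and Nupr1. The share was 29.2% for the 24 genes with a promoter on a list of other ATF4 targets. It was 12.5% for the 16 with a promoter on a list of the stress response core. Both lists are described further on, where their genes are filtered by level and not by promoter. Of the 8722 tested genes with a promoter 2.82% held a match, and of all 27025 genes with one 4.51%. Of all 32851 promoters, 3.97% held it. The promoters of the 4 members with a match are shown from 250 bases before to 30 bases after the start, 5′ to 3′ on the strand of the gene. They carry the letters that the pathway's factor is known to bind. Capitals mark the 8 matched letters, which lie on the opposite strand in Trib3, Chac1 and Nupr1. The windows are chr6:7693180-7693459 (minus strand) for Asns, chr2:152344031-152344310 (minus) for Trib3, chr2:119350992-119351271 (plus) for Chac1 and chr7:126625441-126625720 (minus) for Nupr1.
Asns: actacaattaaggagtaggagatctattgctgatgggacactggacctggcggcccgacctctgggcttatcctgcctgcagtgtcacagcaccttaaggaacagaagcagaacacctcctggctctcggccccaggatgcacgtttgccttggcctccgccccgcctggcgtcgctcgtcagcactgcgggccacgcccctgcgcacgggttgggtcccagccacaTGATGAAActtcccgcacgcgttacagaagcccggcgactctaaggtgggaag
Trib3: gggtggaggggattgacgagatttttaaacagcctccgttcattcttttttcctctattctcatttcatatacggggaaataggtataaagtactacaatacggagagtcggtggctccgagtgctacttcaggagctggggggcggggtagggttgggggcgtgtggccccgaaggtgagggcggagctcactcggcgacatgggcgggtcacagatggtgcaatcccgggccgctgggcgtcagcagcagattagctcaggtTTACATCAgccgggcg
Chac1: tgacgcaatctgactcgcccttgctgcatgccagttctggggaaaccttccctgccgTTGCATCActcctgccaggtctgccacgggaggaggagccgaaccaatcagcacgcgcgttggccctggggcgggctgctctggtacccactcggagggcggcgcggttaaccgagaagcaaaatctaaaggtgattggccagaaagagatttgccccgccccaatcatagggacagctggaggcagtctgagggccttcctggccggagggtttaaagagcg
Nupr1: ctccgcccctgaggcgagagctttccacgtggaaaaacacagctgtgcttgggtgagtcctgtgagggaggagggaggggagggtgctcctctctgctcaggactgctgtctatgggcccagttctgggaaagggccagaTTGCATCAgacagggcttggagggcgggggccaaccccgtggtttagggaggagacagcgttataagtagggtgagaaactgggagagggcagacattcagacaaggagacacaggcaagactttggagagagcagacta
The match began 23 bases before the start in Asns, 193 before it in Chac1 and 110 before it in Nupr1, and at base 15 after it in Trib3. No match was found in these windows for Atf5, Ddit4, Phgdh, Psat1, Psph or Sesn2, which says only that these letters are not in the window. A match is a description of the letters and not a measured binding site.

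The authors' values are TPM that were scaled further before deposit. TPM is each gene's share of the transcript pool, scaled per length and per library, so that levels can be compared between genes. A change below is the log2 of (KO TPM + 1)/(WT TPM + 1), on which the difference of a low gene comes out too small. The 11623 genes whose mean over both libraries reached 1 TPM are called tested genes below, although 1 library per genotype allows no statistical test. A gene was called up with a fold of at least 1.4 or down with a fold of at most 0.6 on that scale. Counting error was taken from a second table of the authors' means, in which the reads behind a gene can be estimated (22086688 in KO and 29710410 in WT over all its genes), and is given as the 95% Clopper-Pearson interval of log2(KO/WT) of those means. It covers counting error only. Pgrmc1 itself was at 0.68 TPM in KO against 949.49 TPM in WT, as the labels of the libraries say. All 10 hepatocyte markers were detected, with mean levels from 269.7 to 48485 TPM.

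Of the ATF4 targets, Ddit4 was higher in KO and the others differed little or by no more than counting error. Of the 8 members tested, 1 was called up, Ddit4, where 1.21% of all tested genes were called up, and 0 were called down, where 0.301% were. The other 7 passed neither threshold. Their changes lay on both sides of 0, with 4 members above and 4 below (45.8% and 53.8% of all tested genes), and the median change of the 8 was 0.03 against -0.01 over all tested genes. The counting interval lay above 0 for 2 of the 8, Ddit4 and Atf5 (11.7% of tested genes), and below 0 for 0 of the 8 (13.4%). Phgdh and Psat1 had means under 1 TPM and were not tested. The 10 members spanned mean levels from 0.33 TPM for Phgdh to 117.4 TPM for Atf5.

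**Figure D1:**
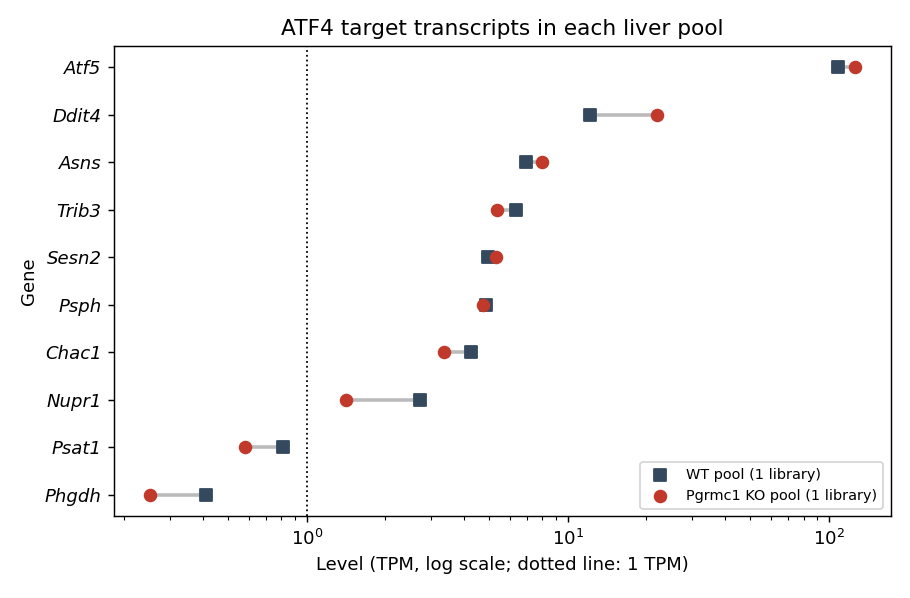
Level of each ATF4 target in the WT pool (squares) and the Pgrmc1 KO pool (circles), in TPM on a log axis, 1 library each, with a dotted line at 1 TPM. The pair for Ddit4 lies at 12.14 and 21.92 TPM, Phgdh and Psat1 lie under 1 TPM in both pools, and Psph and Sesn2 nearly coincide.

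Among the inhibitors of mTORC1, the kinase complex that couples growth to nutrients, only Ddit4 passed the fold rule. Ddit4 (REDD1; Entrez gene 74747; chromosome 10, 59949675 to 59951770 of GRCm38) acts through the TSC complex and is induced by hypoxia, glucocorticoids and energy stress as well as by ATF4. It stood at 21.92 TPM in KO against 12.14 TPM in WT, on 467 and 345 estimated reads. That is a fold of 1.74 and a log2 change of 0.80, with a counting interval of 0.67 to 1.08 for the ratio of means. Only 53 of the 11623 tested genes (0.456%) had a higher change. For tested genes at 10 to 100 TPM, the range of its own mean level, the 5th and the 95th percentile of the change were -0.26 and 0.19. Sesn2 (chromosome 4, 132492804 to 132510456), a leucine sensor that holds back mTORC1 when amino acids are short, was at 5.31 TPM in KO against 4.94 TPM in WT, a log2 change of 0.09. Its interval of -0.17 to 0.40 holds 0, on 185 and 231 estimated reads, so a difference was not detectable at this depth.

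Among the stress regulators, Atf5 was slightly higher in KO, while Trib3 and Nupr1 were lower with intervals that hold 0. Atf5 (Entrez gene 107503; chromosome 7, 44812256 to 44816658), a bZIP factor that is abundant in liver and, like ATF4, controlled at translation, was at 126.22 TPM in KO against 108.59 TPM in WT. Its change of 0.22, a fold of 1.16, has an interval of 0.16 to 0.30 on 2922 and 3361 estimated reads. The interval leaves out 0 because the gene is abundant, and the fold stays under the threshold of 1.4. At 100 to 1000 TPM the 95th percentile of the change of tested genes was 0.21, close to the value of Atf5. Its gene overlaps that of Nup62, which lies on the other strand, and Il4i1b.

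Trib3 (chromosome 2, 152337425 to 152344060), a pseudokinase that binds AKT and ATF4 and is induced late in the response, was at 5.36 TPM in KO against 6.35 TPM in WT. Its change of -0.21 has an interval of -0.55 to 0.08. Nupr1 (chromosome 7, 126623246 to 126625470), a small chromatin protein induced by many stresses, was at 1.41 TPM in KO against 2.72 TPM in WT. That was the lowest change of the 8 tested members, at -0.63. The gene of Nupr1 overlaps that of Gm39087, for which no strand was matched. Among tested genes, 53 (0.456%) had a lower change than Nupr1, a rank as far out as that of Ddit4 on the other side. The change of Nupr1 rests on 8 estimated reads in KO and 22 in WT, and its interval runs from -2.40 to 0.20. On the scale with 1 TPM added its fold was 0.65 and missed the threshold of 0.6. With a fold of at most 0.714, which is 1/1.4, counted as down, 1 member, Nupr1, was down, as were 1.02% of tested genes. With 0.1 TPM added in place of 1 TPM, the change of Nupr1 was -0.90 and it was called down, and with the authors' means it was -0.95 and also called down. The side of the threshold on which Nupr1 falls is therefore set by the scale, and so few reads do not fix its direction.

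Among the enzymes of amino acid synthesis, no member passed the fold rule. Asns (chromosome 6, 7675165 to 7693209), asparagine synthetase and the best known target of amino acid shortage, was at 7.99 TPM in KO against 6.91 TPM in WT. Its change of 0.18 has an interval of -0.06 to 0.50, on 197 and 228 estimated reads. The enzymes of serine synthesis stood low in both livers. Phgdh (chromosome 3, 98313171 to 98339969), which opens the pathway from 3-phosphoglycerate, was at 0.25 TPM in KO against 0.41 TPM in WT, on 5 and 12 estimated reads, with an interval of -2.69 to 0.78. Psat1 (chromosome 19, 15905123 to 15925059), the aminotransferase of the next step, was at 0.58 TPM in KO against 0.81 TPM in WT, on 15 and 29 estimated reads, with an interval of -1.52 to 0.43. Psph (chromosome 5, 129765558 to 129787443), the phosphatase that releases serine, was at 4.73 TPM in KO against 4.86 TPM in WT, a change of -0.03 with an interval of -0.44 to 0.37. The gene of Psph overlaps that of Cct6a, which lies on the other strand. Summed over these 3 enzymes, the level was 5.56 TPM in KO against 6.08 TPM in WT. Chac1 (chromosome 2, 119351242 to 119354326), which splits glutathione and is a sensitive reporter of ATF4 and CHOP, was at 3.35 TPM in KO against 4.25 TPM in WT. Its change of -0.27 has an interval of -0.80 to 0.12, on 65 and 111 estimated reads. The counting intervals of Asns, Chac1 and the 3 enzymes of serine synthesis all hold 0.

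**Figure D2:**
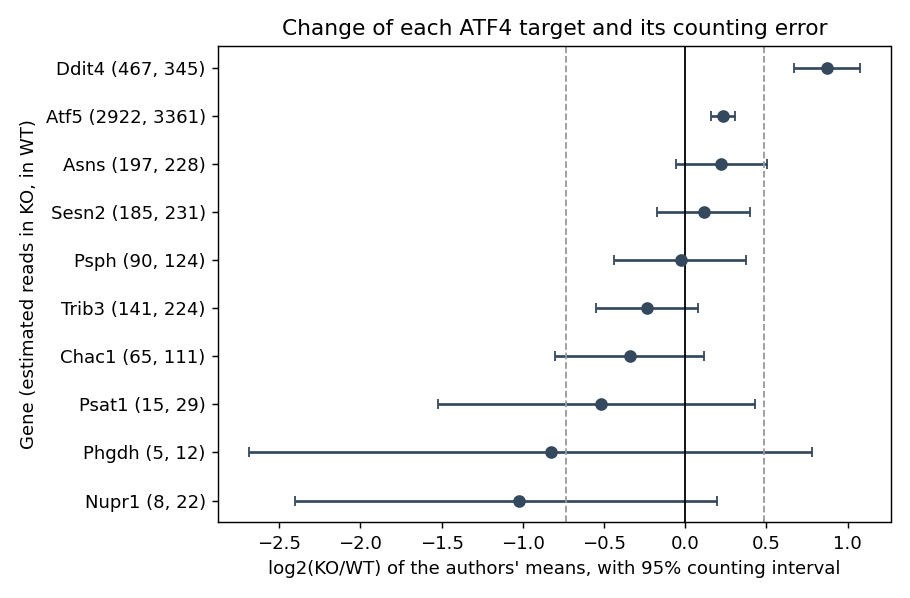
The log2(KO/WT) of the authors' means for each ATF4 target (points) with its 95% counting interval (bars); the labels give the estimated reads in KO and in WT, and dashed lines mark folds of 1.4 and 0.6. Only the bars of Ddit4 (0.67 to 1.08) and Atf5 (0.16 to 0.30) lie clear of 0, and those of Phgdh, Psat1 and Nupr1 are wide because they rest on 5 to 29 reads.

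The members that carry the letters of the C/EBP-ATF element in their promoters, as printed above, had changes of 0.18 for Asns, -0.21 for Trib3, -0.27 for Chac1 and -0.63 for Nupr1. The intervals of all 4 hold 0, so that their directions were not fixed at this depth. Ddit4 and Atf5, whose intervals lie above 0, are 2 of the 6 members with no match in these windows. Of those 6, Phgdh and Psat1 were not tested. Over all tested genes, 11.7% had intervals above 0 and 13.4% below, so most hold 0 in any case. Whether the match goes with the change was not tested.

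**Figure D3:**
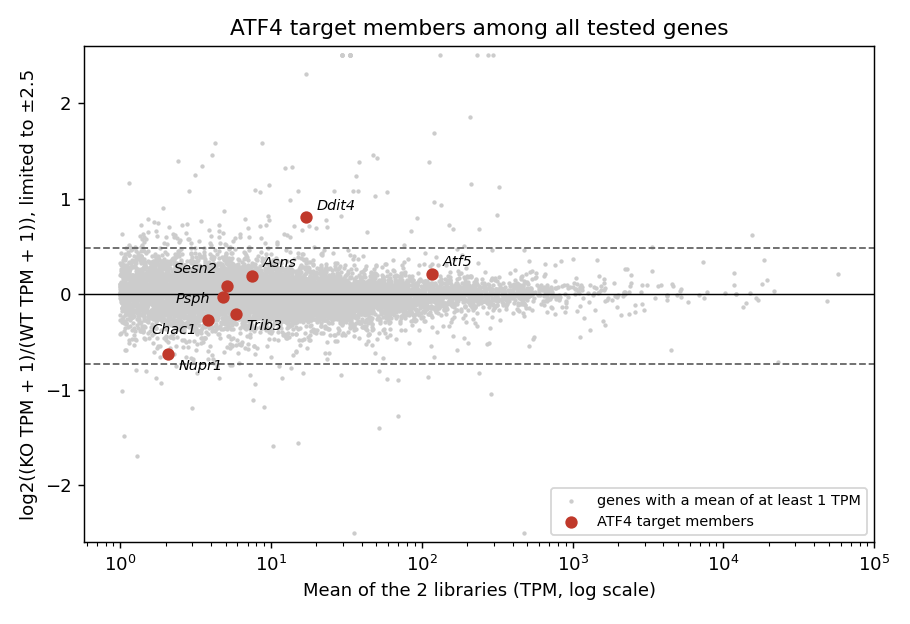
Change between KO and WT, log2((KO TPM + 1)/(WT TPM + 1)), against the mean level in TPM (log axis) for the 11623 tested genes (grey) and the 8 tested ATF4 targets (red), with dashed lines at folds of 1.4 and 0.6 and values limited to ±2.5. Ddit4, at 0.80, lies above the grey band. Nupr1, at -0.63, lies at the lower edge of the band, where low genes scatter more. For each of them, 53 tested genes (0.456%) lie further out on the same side. The other 6 lie among the grey points.

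Upstream of the members, the core of the integrated stress response was compared as a list of 20 genes for kinases and their regulators, eIF2 and eIF2B subunits, phosphatase subunits and transcription factors. Of the 19 tested, 0 were called up (1.21% of all tested genes) and 1 was called down (0.301%), Ddit3, and their median change was -0.02. The transcript of Atf4 itself stood at 72.89 TPM in KO against 75.04 TPM in WT, a change of -0.04 with an interval of -0.13 to 0.07. Ddit3, which encodes the factor CHOP, was at 4.91 TPM in KO against 9.60 TPM in WT, a fold of 0.56 and a change of -0.84. Its interval of -1.51 to -0.49, on 46 and 123 estimated reads, lies below 0. Atf3, another bZIP factor of the response, had a mean just under 1 TPM and was not tested. It was at 0.59 TPM in KO against 1.38 TPM in WT, on 14 and 46 estimated reads, with an interval of -2.26 to -0.39. The regulators Ddit3 and Atf3 thus had intervals below 0, while Trib3 and Chac1, members that lie downstream of them or beside them, were lower by amounts that counting error covers.

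Of the 4 eIF2 kinase genes, 1 had an interval clear of 0. Eif2ak3 (PERK), which answers unfolded proteins in the endoplasmic reticulum, was at 8.54 TPM in KO against 11.36 TPM in WT, a change of -0.37 with an interval of -0.56 to -0.25. Eif2ak4 (GCN2), which senses uncharged tRNA, was at 4.70 TPM in KO against 4.69 TPM in WT, a change of 0.00 with an interval of -0.19 to 0.23. Eif2ak1 (HRI) and Eif2ak2 (PKR), the kinases for heme and double-stranded RNA, had changes of 0.03 and -0.07 with intervals that hold 0, and were named after their values were seen. Ppp1r15a (GADD34), the stress-induced phosphatase subunit that ends the response, was at 7.90 TPM in KO against 7.77 TPM in WT, a change of 0.02. The highest of the list was Cebpb, a C/EBP partner of ATF4, at 95.82 TPM in KO against 88.25 TPM in WT, a change of 0.12. Of the 19, 3 intervals lay above 0 (11.7% of all tested genes) and 4 below (13.4%), counts near the share over all genes.

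A list of 32 other ATF4 targets held no called gene. Of the 24 tested, 8 lay above 0 (45.8% of all tested genes) and 16 below (53.8%), and the median change was -0.06. Of these, 0 were called up (1.21% of all tested genes) and 0 down (0.301%). The lowest was Fgf21, a stress and fasting hormone of the liver, at 2.93 TPM in KO against 5.50 TPM in WT, with a fold of 0.605 that lies just outside the threshold and an interval of -1.56 to -0.30. The highest was Tnfrsf10b, a death receptor induced by CHOP, at 4.0 TPM in KO against 2.80 TPM in WT, a change of 0.40 with an interval of 0.21 to 0.85. The secreted hormone Gdf15 (8.00 TPM in KO against 11.49 TPM in WT, interval -0.87 to -0.16) and the endoplasmic reticulum protein Herpud1 (471.31 TPM in KO against 645.59 TPM in WT, interval -0.47 to -0.41) were also lower. Both were chosen after their values were seen. In this list 8 intervals lay below 0 (13.4% of all tested genes) and 3 above (11.7%).

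The cytosolic aminoacyl-tRNA synthetases, which load amino acids onto tRNAs and include many ATF4 targets, showed small changes. Of 20 tested, 0 were called up (1.21% of all tested genes) or down (0.301%). Of the 20, 17 lay below 0 (53.8% of all tested genes), with a median of -0.04 and a range from -0.25 for Nars to 0.05 for Vars. Nars, which charges tRNA with asparagine, the product of Asns, was at 61.91 TPM in KO against 73.61 TPM in WT, with an interval of -0.32 to -0.16. Vars was at 15.37 TPM in KO against 14.80 TPM in WT, with an interval that holds 0. Counting intervals lay below 0 for 5 of the 20 (13.4% of all tested genes) and above 0 for 0 (11.7%). The 20 had mean levels from 13.23 to 105.7 TPM, where intervals are narrower than for low genes. Tested genes at 10 to 100 TPM had a median change of -0.03.

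Genes that use or break down serine and glycine, and those of the folate pathway that takes carbon from them, were compared beside serine synthesis. Of 30 on the list, 28 were tested, and 0 were called up (1.21% of all tested genes) or down (0.301%). Of the 28, 15 lay above 0 (45.8% of all tested genes) and 13 below (53.8%), with a median of 0.01. The lowest was Sds, a serine dehydratase that feeds serine into gluconeogenesis, at 168.08 TPM in KO against 239.35 TPM in WT, a change of -0.51 with an interval of -0.56 to -0.42. The highest was Tyms, thymidylate synthase, at 26.97 TPM in KO against 23.89 TPM in WT, a change of 0.17 with an interval of 0.08 to 0.29. The related dehydratase gene Sdsl, chosen after its values were seen, had 8.47 TPM in KO against 11.59 TPM in WT, with an interval of -0.77 to -0.11. Transcripts of these dehydratases added up to 176.6 TPM in KO against 250.9 TPM in WT, far above the sums of the serine synthesis enzymes in both livers. Phgdh and Psat1 rest on far fewer reads, so their wide intervals do not set them apart from the dehydratases. Psph rests on 90 estimated reads in KO and 124 in WT, against 123 and 225 for Sdsl. The interval of Psph, -0.44 to 0.37, overlaps that of Sdsl, -0.77 to -0.11, and meets that of Sds, -0.56 to -0.42, only at its end. Overlap of intervals does not decide whether 2 changes differ, and the difference between Psph and the dehydratases was not tested.

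The amino acid sensors and mTORC1 components around Ddit4 and Sesn2 showed no call. Of 36 symbols 34 were found and 30 were tested, with 14 above 0 (45.8% of all tested genes), 16 below (53.8%) and a median of -0.01. Of the 30, 0 were called up (1.21% of all tested genes) and 0 down (0.301%). They ran from Flcn, folliculin, at 15.63 TPM in KO against 19.43 TPM in WT (change -0.30, interval -0.43 to -0.16), to Mtor, the kinase itself, at 19.42 TPM in KO against 17.17 TPM in WT (change 0.17, interval 0.11 to 0.27). The paralogs of Sesn2 were at 11.52 TPM (Sesn1) and 14.81 TPM (Sesn3) in KO and at 12.56 and 13.45 TPM in WT, and their intervals hold 0. Ddit4 was the one gene called among the mTORC1 regulators compared, but 0 calls among 30 genes is near the share called over all tested genes.

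**Figure D4:**
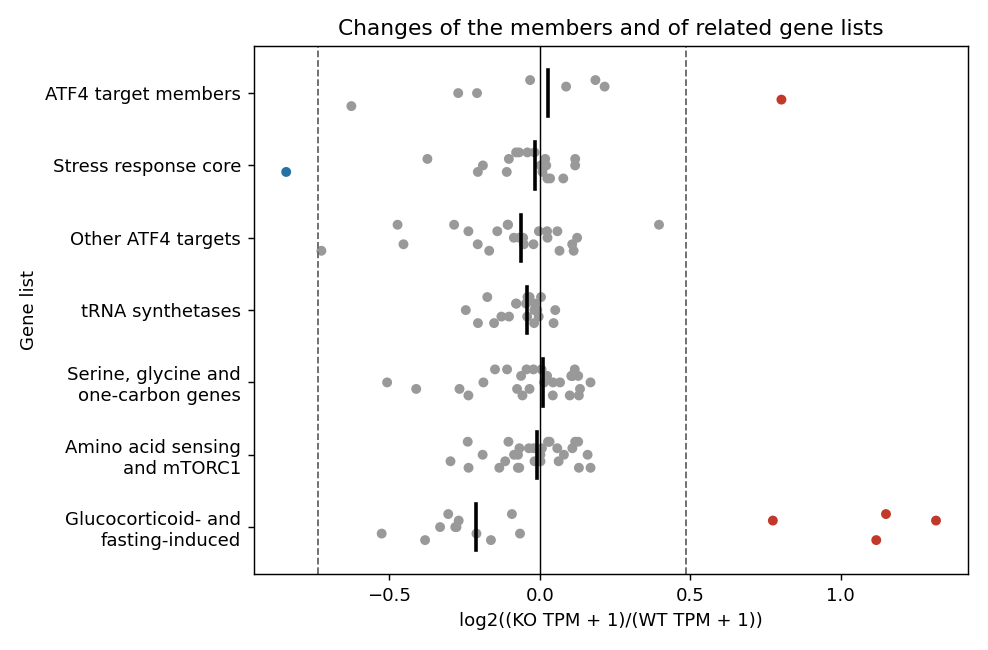
Change between KO and WT of every tested gene in the ATF4 target set and in related lists (points), with the median of each list (bar) and dashed lines at folds of 1.4 and 0.6; red points were called up and the blue point was called down. The medians of the ATF4 targets and of the 5 pathway lists lie between -0.06 and 0.03, while the glucocorticoid- and fasting-induced list splits into 4 genes called up and 11 below 0.

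Because Ddit4 is also induced by glucocorticoids and in fasting, a list of 15 genes that hormones and fasting induce in liver is given beside it. This list, like the others, was chosen with earlier results of these data known, so its counts are not independent of them. Of the 15 tested, 4 were called up (1.21% of all tested genes) and 0 down (0.301%), 11 lay below 0 (53.8%), and the median was -0.21. The 4 were Irs2, an insulin receptor substrate (18.15 TPM in KO, 6.69 TPM in WT, change 1.32), Igfbp1 (294.54 and 132.17 TPM, change 1.15), G6pc, the last enzyme of gluconeogenesis (445.52 and 204.76 TPM, change 1.12), and the kinase gene Sgk1 (29.63 and 16.91 TPM, change 0.77). The lowest was Fkbp5, a glucocorticoid target, at 34.86 TPM in KO against 50.62 TPM in WT, a change of -0.53. The counting interval lay above 0 for the 4 genes called up (11.7% of tested genes), below 0 for the other 11 (13.4%), and held 0 for 0 genes. The list thus moved in both directions, and the part of feeding or hormones in the change of Ddit4 was not tested. Markers of other liver cells were compared in the same way, and 0 of them were called up (1.21% of tested genes) or down (0.301%). Of the 7 Kupffer cell markers 6 lay above 0 (45.8% of tested genes), with 3 intervals above 0 (11.7%) and 4 that hold it. Their summed level was 215.6 TPM in KO against 194.0 TPM in WT. Of the 8 stellate cell markers 6 lay below 0 (53.8% of tested genes), with 4 intervals below 0 (13.4%), 1 above (11.7%) and 3 that hold it. Their sum was 206.0 TPM in KO against 236.1 TPM in WT. All 8 endothelial markers lay below 0 (53.8% of tested genes), with 3 intervals below 0 (13.4%) and 5 that hold it. Their sum was 197.4 TPM in KO against 215.6 TPM in WT. Leukocyte markers summed to 90.8 TPM in the KO library and 87.9 TPM in the WT library, and all 5 tested had intervals that hold 0. Cholangiocyte markers summed to 62.5 and 67.6 TPM, of which Spp1 held 57.81 and 61.41 TPM. Of the 4 tested cholangiocyte markers 3 lay below 0 (53.8% of tested genes). The interval of 1, Epcam (0.67 TPM in KO, 1.51 TPM in WT), lay below 0 (13.4%), and 3 hold it. No marker of these lists was at 0 in both libraries, and the part of these cells in the change of Ddit4 was not tested.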

How the data were processed

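Liver RNA was pooled by genotype before library preparation (stranded total RNA kit) and sequenced as 1 library each. Per the labels and the study's methods, the authors used CASAVA 1.8.2 and ran RSEM 1.2.09 with Bowtie on paired reads against mm10. They deposited the posterior mean of each gene as scaled TPM. Summed over genes, the KO column holds 1005325 and the WT column 994702, so the columns do not share a total. A second deposited table gives the authors' mean signal per library from EBSeq, which is the RSEM estimate of reads after division by a size factor. Its columns carry no genotype in their names and were tied to KO and WT through the study's supplementary table, whose 1997 rows read here hold the same means under genotype headings. Its other columns, the authors' fold changes and probabilities, were not used.

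The most frequent low mean, 1.16 in KO and 0.860 in WT, was taken as 1 read. Within 0.02 reads, 78.4% of KO and 75.0% of WT values were whole, and 19 of the 20 values of the members. Reads were rounded to whole numbers for the intervals, and no count test was run, since RSEM splits reads between genes. No p-value is given, since neither genotype has a second library. The members and the gene lists were chosen with earlier results of these data known. The genes named are the members, the ends and calls of each list, and Atf4, Ddit3, Atf3, Ppp1r15a, Eif2ak3 and Eif2ak4; others are marked as chosen after their values were seen, and Sesn1 and Sesn3 are the paralogs of a member. Gene positions come from the RefSeq annotation of GRCm38 (mm10). Alternatives were a pseudocount of 0.1 TPM, no filter on low values or a mean of at least 10 TPM, the second table's means, other fold thresholds, and 2 other scalings, by the median gene and by the total without the 50 most abundant genes. Intervals came from scipy 1.17.1, tables from pandas 2.3.3 and plots from matplotlib 3.10.9, run in Python 3.11.15.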

Additional observations from a re-analysis of the deposited data

How the results depend on the processing

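No paired analysis was possible because a single pool stands for each of KO and WT. Under the pseudocount of 0.1 TPM, the authors' means, centring and rescaling, 40 of 40 values of the 10 members stayed within the counting error of the main value. This was a weak check, since centring and rescaling move all genes little and low genes have wide intervals. The change of Ddit4 ran from 0.80 to 0.87, that of Nupr1 from -0.95 to -0.61 and that of Phgdh from -0.73 to -0.16. Under the alternatives the median over all genes stayed from -0.02 to 0.01. With fold thresholds of 2 and 0.5, 0 members were called up in place of 1, and 0 genes of the stress response core were called down in place of 1. One member, Nupr1, was called down in place of 0 members with 0.1 TPM added, with the authors' means and with the mirrored threshold for falls. Among the other ATF4 targets, 1 gene, Fgf21, was called down with the same 3 alternatives. In the same list 1 gene, Tnfrsf10b, was called up with 0.1 TPM added and with the authors' means. With the mirrored threshold 1 gene of serine and glycine use, Sds, was called down, as were 1.02% of all tested genes. For the other alternatives the share of all genes called was not computed, so these counts have no background beside them. When only genes averaging 10 TPM or more were kept, the median change of the members was 0.51, over the 2 left, Ddit4 and Atf5, and Ddit3 left the tested genes, so that 0 genes of the stress response core were down. For Atf5 and other abundant genes the limit is the single pool per genotype, and for Phgdh, Psat1 and Nupr1 it is depth.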
